A study of Homo sapiens with 16 samples.

Results

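The common response to loss of XBP1s was taken from all 16 RNA-seq libraries of the series, by comparing the 8 treated with the 8 control libraries and keeping the experiment as a covariate. LNCaP, an established human prostate cancer cell line of luminal type, was used at passage 20 throughout. In the knockdown experiment, cells carried Allstar control siRNA (siCtrl, n = 4) or siRNA specific for XBP1 (siXBP1, n = 4) for 2 days. In the inhibitor experiment, cells received DMSO (Vehicle, n = 4) or 10 µM MKC8866 (n = 4), an inhibitor of the RNase activity of IRE1α, for 24 h. Controls and treated cells of both experiments alike were then exposed to 30 nM thapsigargin for 3 h, a drug that blocks the ER calcium pump and causes ER stress, so no library represents unstressed cells. Each experiment had its own controls, and transfection, the length of pretreatment and the kind of inhibition differ together between the experiments and cannot be told apart.

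A gene was called common lower or common higher when treated and control libraries differed at an adjusted p under 0.05 in this joint test (edgeR quasi-likelihood F test, Benjamini-Hochberg over the 20357 genes tested) and the change had the same direction in both experiments. The stricter description, lower or higher in each experiment, was kept for genes that also passed the same test in siXBP1 against siCtrl and in MKC8866 against Vehicle when each was fitted apart. The study describes the libraries of a group as independent samples but does not say whether each came from a culture of its own. The p-values thus measure no more than the spread in these libraries, which may be technical. In the joint test, a difference in response between the experiments also counts as spread. In bulk RNA, fewer cells with a transcript and less of it per cell cannot be told apart.

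IRE1α is a transmembrane sensor of the ER. When unfolded proteins accumulate, its RNase removes a short intron from XBP1 mRNA, and the spliced mRNA encodes the transcription factor XBP1s. XBP1s is known for activating genes that import proteins into the ER, fold and glycosylate them, return failed ones to the cytosol for degradation and carry finished ones to the Golgi, and secretory tissues such as the prostate epithelium depend on this capacity. It binds ER stress elements (ERSE, ERSE-II) and unfolded protein response elements (UPRE) in promoters.

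The libraries held 28713607 to 34509488 counted fragments (median 30743136), of which 2.76% to 5.04% fell on mitochondrially encoded genes. All 10 luminal prostate markers were above 1 CPM (counts scaled to the size and composition of the library), and their sum ran from 4863 to 5085 CPM in siCtrl, 3845 to 3953 in siXBP1, 4902 to 5024 in Vehicle and 5295 to 5442 in MKC8866. None of the 6 leukocyte markers reached a mean of 1 CPM, and their sum did not exceed 1.71 CPM in any library. Of the other cell types, 1 of 5 endothelial, 1 of 6 neuroendocrine, 2 of 6 basal and 2 of 6 fibroblast markers did, and the fibroblast sum lay between 27.8 and 40.4 CPM over all libraries. In the joint test described above, 2 fibroblast markers (COL3A1, PDGFRB) and 1 basal marker (ITGA6) were common higher, and the neuroendocrine marker SYP and the luminal marker KRT18 were common lower. The part of other cell types in the results was not tested.

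XBP1 itself checked the labels. Its level was 386, 422, 367 and 359 CPM in the siCtrl libraries against 51.2, 54.2, 54.2 and 53.2 CPM in the siXBP1 libraries, a log2 fold change of -2.85 ± 0.05 (SE, n = 4 against 4). In the inhibitor experiment, XBP1 stood at 488, 539, 483 and 504 CPM in Vehicle and at 583, 619, 576 and 537 CPM with MKC8866, which is 0.20 ± 0.04 higher on the log2 scale (adjusted p = 0.00493). The gene count holds the spliced and the unspliced form together, so it shows the siRNA and not the inhibitor, and XBP1 is outside the common response.

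Of the genes tested, 1876 (9.22%) were common lower and 1869 (9.18%) common higher. Lower in each experiment were 505 genes (2.48%), and higher in each were 132 (0.648%), all of them within the common sets. With the replicate number as a block, these became 786 (3.86%) and 427 (2.1%) genes, which contained 501 of the 505 and all of the 132, while the common sets came to 1460 (7.17%) and 1354 (6.65%). The 132 fell to 85 without MKC8866 replicate 1. The largest shared changes were mostly falls. A change of more than 1 on the log2 scale in both experiments was seen in 37 common lower and 2 common higher genes, and one of more than 0.5 in 190 and 60. Over the genes lower in each experiment, the median log2 fold change was -0.51 with siXBP1 and -0.36 with MKC8866, and over those higher in each it was 0.33 and 0.24. The medians over all genes tested were 0.0032 and 0.0030.

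Most common genes were called in the knockdown experiment when it was fitted apart. Called in the knockdown but not in the inhibitor experiment were 1168 of the common lower and 1548 of the common higher genes, whereas 67 and 38 were called with MKC8866 alone, and 136 and 151 in neither. The replicate block pairs same-numbered libraries within each experiment. With it, 276 of the 1168 and 290 of the 1548 were called with MKC8866. Of all common genes, the block gave 891 and 1244 called with siXBP1 alone, 136 and 103 with MKC8866 alone and 65 and 101 in neither. The size of the response differed between the experiments, by an interaction term fitted over the 4 groups, for 822 common lower and 886 common higher genes, and it was larger with siXBP1 in 798 and 873 of these. Treated and control libraries did not overlap in either experiment for 588 common lower and 286 common higher genes. Over all genes, 2.9% were lower and 1.41% higher without such overlap. Protein-coding genes made up 87.5% of those lower in each experiment, 97.7% of those higher in each and 68.2% of all tested. Of the common lower and common higher genes, 84.2% and 88.4% were protein-coding. The common shares over protein-coding genes alone are thus above the 9.22% and 9.18% of all genes.

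**Figure D1:**
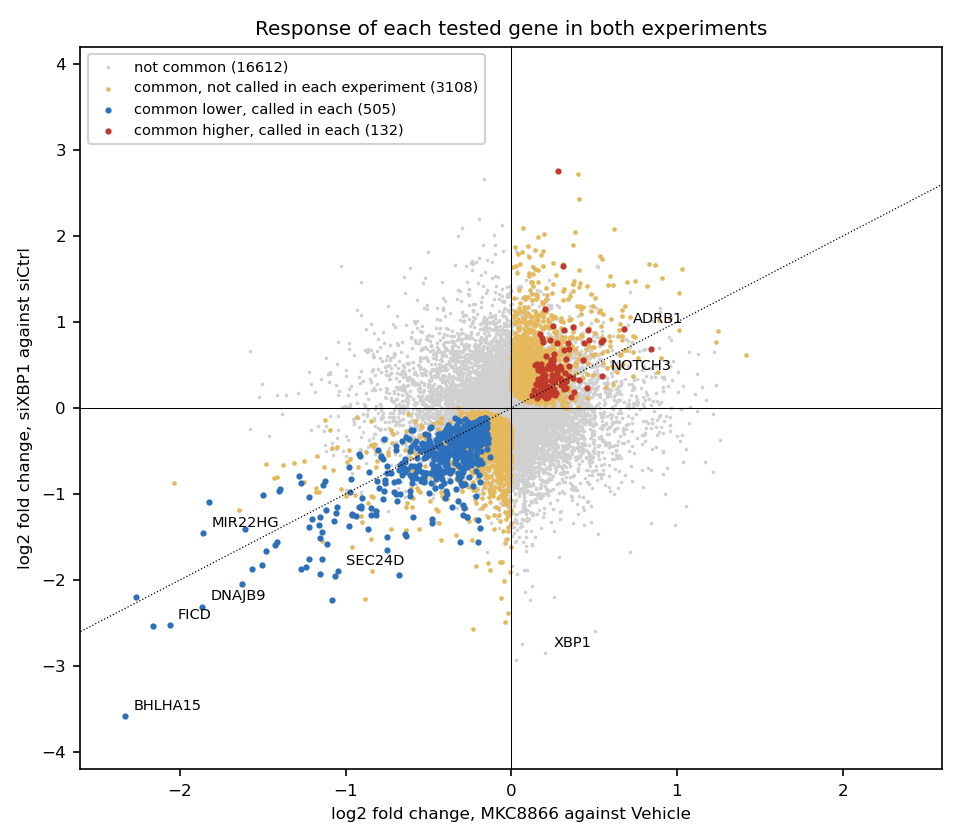
Log2 fold change of each of the 20357 genes tested with MKC8866 against Vehicle (horizontal axis) and with siXBP1 against siCtrl (vertical axis), with the line of equal change dotted and 1 gene lying outside the axes. The genes lower in each experiment (505, blue) reach far into the lower left, with BHLHA15, FICD and DNAJB9 at the end and 35 genes beyond 1 on both axes, whereas none of the genes higher in each (132, red) is beyond 1 on both, though MEX3B reaches 2.76 with siXBP1, and XBP1 lies off the line, lower with siXBP1 and higher with MKC8866.

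The deepest common fall was that of BHLHA15 (ENSG00000180535, chr7:98211427-98212979), which encodes MIST1, a transcription factor of secretory cells. Its level was 28.5, 36.1, 30.1 and 28.7 CPM in siCtrl and 2.11, 2.41, 2.85 and 2.89 CPM in siXBP1. In the inhibitor experiment it was 33.5, 30.0, 30.3 and 32.2 CPM in Vehicle and 6.22, 5.15, 6.91 and 6.68 CPM with MKC8866. Every treated library was thus below every control library, with log2 fold changes of -3.58 ± 0.10 (adjusted p = 3.74e-17) and -2.33 ± 0.08 (adjusted p = 2.93e-16), and the fall was deeper with siXBP1 (interaction adjusted p = 7.28e-08).

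FICD (ENSG00000198855, chr12:108515185-108525837) encodes the ER enzyme that adds and removes AMP on the chaperone BiP. It fell from 136, 140, 148 and 139 CPM in siCtrl to 22.8, 23.8, 25.7 and 25.5 CPM in siXBP1, and from 112, 111, 113 and 112 CPM in Vehicle to 26.0, 24.9, 28.3 and 28.0 CPM with MKC8866. The treated libraries of both experiments met at about the same level, and the log2 fold changes were -2.52 ± 0.05 and -2.06 ± 0.05. DNAJB9 (chr7:108569568-108574850), a J-domain cofactor of BiP that holds IRE1α inactive, showed the same order of groups. It stood at 228, 230, 210 and 240 CPM in siCtrl, 42.7, 45.6, 48 and 46.6 in siXBP1, 175, 186, 172 and 190 in Vehicle and 43.4, 51.6, 47.5 and 55.2 with MKC8866. Both genes have exons that overlap those of a neighbour, and fragments that touch both genes were not counted.

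**Figure D2:**
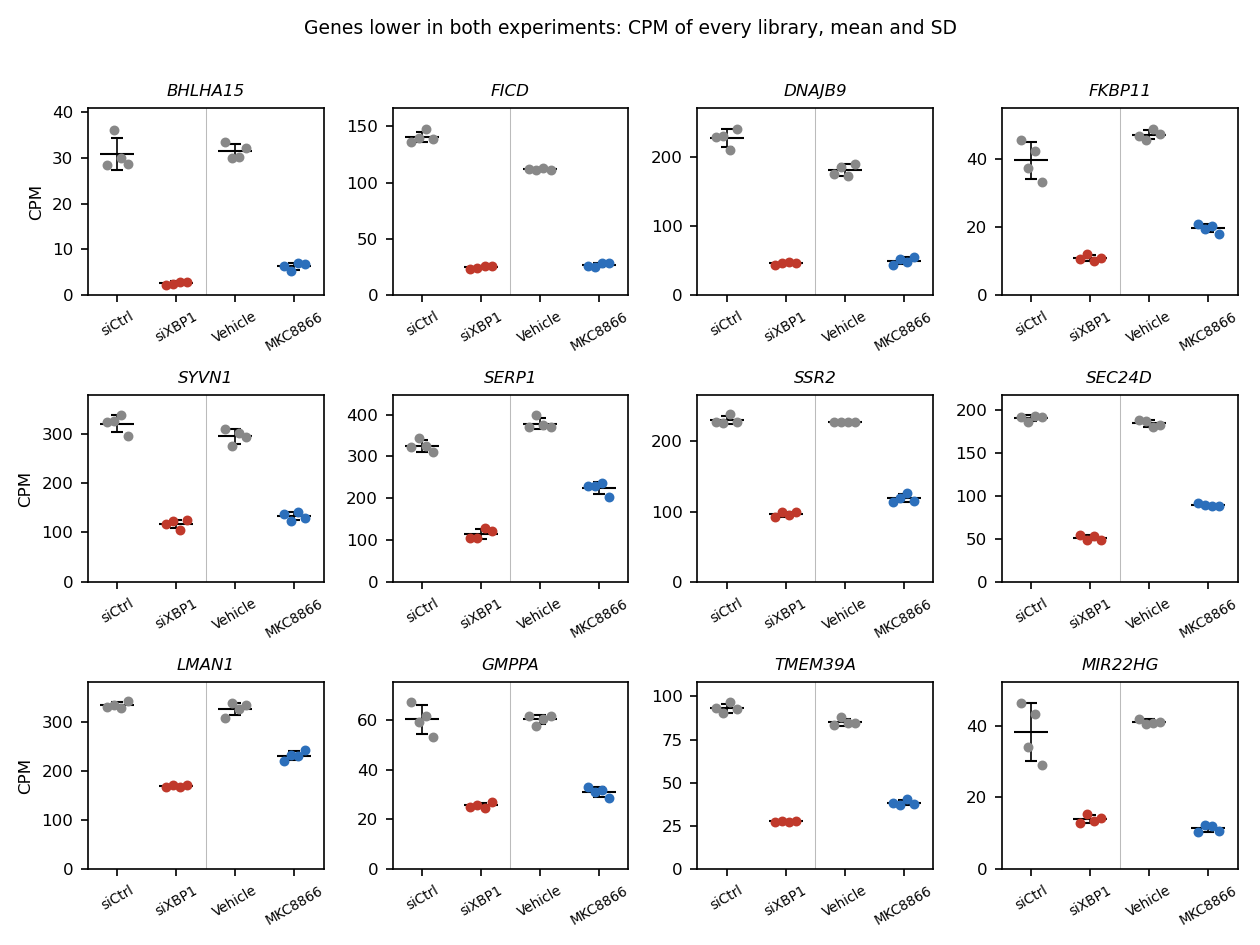
CPM of every library (points) for 12 common lower genes, with the mean and SD (n = 4) of each group, siCtrl and siXBP1 to the left and Vehicle and MKC8866 to the right of the grey line. In all 12 panels the 4 treated libraries lie below the 4 controls of the same experiment, and for most of the genes siXBP1 lies lower than MKC8866, with MIR22HG as the reverse case.

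The genes of the secretory pathway were described in 15 lists, from the UPR sensors to the Golgi. Of the 304 members tested, 176 (57.9%) were common lower, against 9.22% of all genes, and 11 were common higher (3.62%, against 9.18%), or 7 with the replicate block. Lower in each experiment were 126 members, which is 25% of the 505 genes so called, and no member was higher in each, or 1 with the replicate block. The median over the 304 was -0.27 with siXBP1 and -0.14 with MKC8866. Since overlapping neighbours and counting without strand could mix genes, the lists were also counted over genes with no overlapping exons, where 90 of 153 members (58.8%) were common lower against 8.78% of all.

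The sequences upstream of these genes were examined for the elements that XBP1s and its partners are known to bind. Each motif was sought on both strands of the 300 bases from 250 before to 50 after the first-listed RefSeq start of a gene (GRCh38.p14), among protein-coding genes. The UPRE (TGACGTGG) was present for 5.84% of the 377 genes lower in each experiment that had a promoter entry (of 442), 3.52% of 1306 common lower, 0.376% of 1331 common higher and 0.891% of all 11226. The shorter XBP1 core GACGTG, which every UPRE match contains, was present for 28.6%, 19.8%, 7.59% and 10.3% of the same sets. ERSE (CCAAT and CCACG with 9 bases between) stood at 1.59%, 0.536%, 0.0751% and 0.151%, and ERSE-II (ATTGG, any base, CCACG) at 1.33%, 0.459%, 0% and 0.098%. A variant UPRE (TGACGTGA) was present for 1.59%, 0.766%, 0.451% and 0.526%. The cyclic AMP element TGACGTCA, bound by other bZIP factors, stood at 3.18%, 3.37%, 2.18% and 3.14%, and the E-box CACGTG stood at 11.7%, 12%, 9.47% and 9.85%. CCAAT alone was present for 51.5%, 45.6%, 34.3% and 36.6%, and the bare ACGT, which UPRE, the XBP1 core, the cyclic AMP element and the E-box share, for 59.9%, 54.2%, 34.3% and 40.4%. The order of the sets seen for the UPRE was thus also that of CCAAT and ACGT, less steeply. These are shares of sequences with no test, and a match is not evidence of binding. An ERSE also lay 66 bases before the start of HSPA5 and 52 before that of XBP1, and neither is a common gene. No UPRE, ERSE or ERSE-II was found in the 300 bases of BHLHA15 or DNAJB9.

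**Figure D3:**
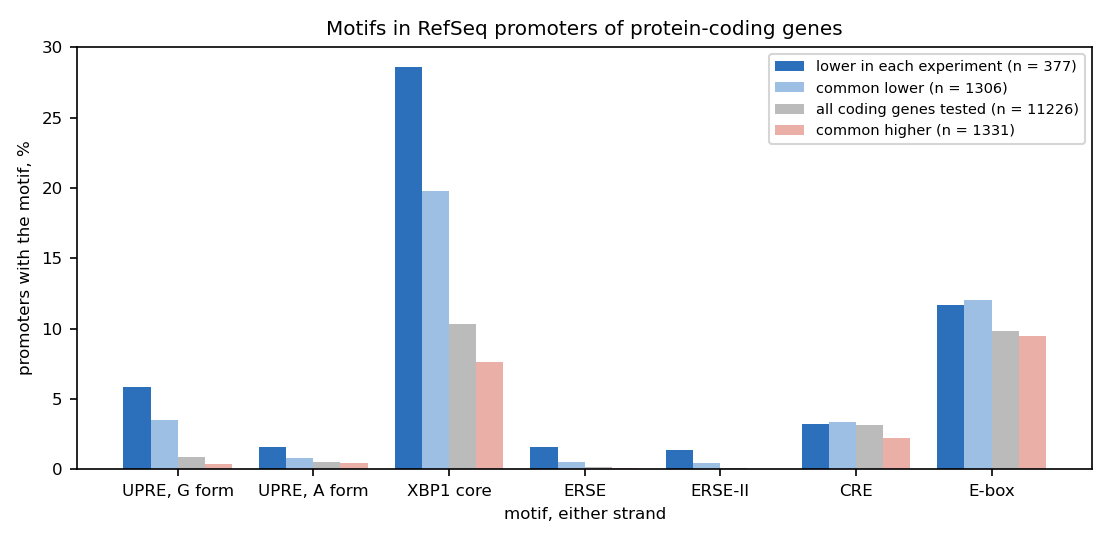
Share of protein-coding genes (percent, vertical axis) whose RefSeq promoter holds each motif on either strand, for the genes lower in each experiment, common lower, all coding genes tested and common higher. The share of promoters with the core GACGTG falls from 28.6% in the genes lower in each experiment to 7.59% in the common higher genes, while the cyclic AMP element stays between 2.18% and 3.37%.

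Of the protein-coding genes lower in each experiment, 32 held a UPRE of either form, an ERSE or an ERSE-II upstream of the start, and 19 of them were members of a list. Shown here are 60 bases (RefSeq, GRCh38.p14, 5′ to 3′ on the strand of the gene) for 8 of them that stand for successive steps of the pathway, with the matched letters in capitals. SRP19 (chr5:112861149-112861208, plus strand) is a subunit of the particle that brings nascent proteins to the ER, and SERP1 (chr3:150546687-150546746, minus) stabilises proteins in the translocon. FICD (chr12:108515102-108515161, plus), HYOU1 (chr11:119057250-119057309, minus) and DNAJC10 (chr2:182716106-182716165, plus) act on folding, and HERPUD1 (chr16:56932000-56932059, plus) acts in degradation. SEC24A (chr5:134648580-134648639, plus) selects cargo for the COPII coat, and COPB2 (chr3:139389810-139389869, minus) belongs to the COPI coat.
SRP19, UPRE on the opposite strand: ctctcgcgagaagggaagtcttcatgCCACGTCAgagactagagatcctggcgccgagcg
SERP1, ERSE on the opposite strand: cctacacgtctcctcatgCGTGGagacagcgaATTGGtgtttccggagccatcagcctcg
FICD, ERSE: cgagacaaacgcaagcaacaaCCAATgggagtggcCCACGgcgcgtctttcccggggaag
HYOU1, ERSE-II on the opposite strand: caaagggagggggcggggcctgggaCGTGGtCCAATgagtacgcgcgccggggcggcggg
DNAJC10, UPRE on the opposite strand: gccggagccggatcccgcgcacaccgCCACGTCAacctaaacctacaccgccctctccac
HERPUD1, ERSE-II: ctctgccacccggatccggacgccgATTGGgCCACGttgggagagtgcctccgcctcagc
SEC24A, UPRE: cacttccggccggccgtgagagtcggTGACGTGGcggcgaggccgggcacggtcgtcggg
COPB2, UPRE on the opposite strand: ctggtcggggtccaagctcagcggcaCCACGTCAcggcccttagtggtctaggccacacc
The first matched base lies 112 bases before the start in SRP19, 232 in SERP1, 154 in FICD, 79 in HYOU1, 125 in DNAJC10, 117 in HERPUD1, 179 in SEC24A and 163 in COPB2. With siXBP1 and MKC8866, the log2 fold changes were -0.45 and -0.61 for SRP19, -1.50 and -0.75 for SERP1, -0.32 and -0.43 for HYOU1, -0.74 and -0.37 for DNAJC10, -0.25 and -0.61 for HERPUD1, -0.64 and -0.26 for SEC24A and -0.54 and -0.35 for COPB2.

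Among 11 sensors and transcription factors of the UPR, 5 were common lower and none common higher. Lower in each experiment were 3, or 5 with the replicate block. Besides BHLHA15, these included EIF2AK3, the gene of the sensor kinase PERK, and CREB3L2, a membrane-bound transcription factor. EIF2AK3 fell in both experiments, from 84.8, 78.0, 83.9 and 80.8 CPM to 48.5, 46.2, 52.6 and 46.2 with siXBP1 and from 84.3, 86.2, 85.9 and 83.8 CPM to 50.9, 49.2, 50.8 and 50.7 with MKC8866 (log2 fold changes -0.76 ± 0.05 and -0.75 ± 0.04, interaction adjusted p = 0.979). CREB3L2 fell by 1.41 and 0.87 on the log2 scale. The sensor ERN1 (IRE1α) changed in opposite directions, at -0.16 with siXBP1 and 0.25 with MKC8866, and ATF6 stood at 0.05 and 0.02 and did not pass the test in either experiment. These last 2 genes were singled out after their values were seen.

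The import of proteins into the ER was also described in 3 lists. In the list of the signal recognition particle, the SEC61 channel and the translocon-associated TRAP complex, 17 of 21 members were common lower, 16 of them in each experiment, with medians of -0.59 for siXBP1 and -0.41 for MKC8866. SSR2, a TRAP subunit, fell from 228, 226, 239 and 227 CPM to 91.9, 99.0, 95.0 and 98.9 CPM in siXBP1 and from 228, 228, 227 and 228 CPM to 114, 120, 126 and 116 CPM with MKC8866. The 2 control groups of SSR2 were at one level and the treated groups apart from them and from each other. SERP1 fell from 322, 343, 324 and 311 CPM to 105, 104, 128 and 122 CPM in siXBP1, and from 370, 398, 376 and 370 CPM to 229, 230, 237 and 202 CPM with MKC8866. SSR1 and SSR3, other subunits of TRAP, fell by 0.93 and 1.27 on the log2 scale with siXBP1 and by 0.80 and 0.59 with MKC8866. Of the 6 members of the signal peptidase list, 4 were lower in each experiment, among them SPCS3 (-0.38 and -0.38) and HM13, a protease that clears cut signal peptides (-0.44 and -0.35). The ER membrane protein complex, which inserts membrane proteins, had 3 of 10 subunits common lower, 1 of them in each experiment, and medians of 0.0043 and -0.08. Of these subunits, EMC7 (-1.80 and -0.07) and MMGT1 (-0.87 and -0.02) were not called with MKC8866, and each had a called interaction.

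Folding factors were lower in part. Among 22 lumenal chaperones and BiP cofactors, 9 were common lower, including DNAJC3, a J-domain cofactor of BiP (-0.50 and -0.49), HYOU1, its exchange factor, and CRELD2 (-0.25 and -0.60). HSP90B1, the ER form of HSP90, and CRELD1 were common higher (with the replicate block, CRELD1 but not HSP90B1). They stood at 0.27 and 0.01 for HSP90B1 and 0.30 and 0.07 for CRELD1, each with a called interaction. Common higher members were thus 2 of the 22 (9.09%), near the 9.18% of all genes. HSPA5, which encodes BiP itself, moved in opposite directions, 0.30 higher with siXBP1 (adjusted p = 1.69e-05) and 0.15 lower with MKC8866 (log2 fold change -0.15, adjusted p = 0.00476), and is not a common gene. It was singled out after its values were seen. Of 22 disulfide isomerases and ERO1 oxidases, 12 were common lower and 1 higher (none higher with the block). Those lower in each experiment included ERO1B (-0.50 and -0.48), P4HB, the classical protein disulfide isomerase (-0.57 and -0.25), and TXNDC15 (-1.16 and -0.36). Among 7 prolyl isomerases, FKBP2, FKBP11, FKBP14 and PPIB were lower in each. FKBP9 was common higher, at 0.56 with siXBP1 and 0.12 with MKC8866. FKBP11 (chr12:48921518-48926474) fell from 45.7, 37.4, 42.3 and 33.3 CPM to 10.5, 12, 9.86 and 11 in siXBP1 and from 46.8, 45.6, 49.0 and 47.5 CPM to 20.8, 19.3, 20.4 and 18 with MKC8866, the widest fall of the list.

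Glycosylation was described in 3 lists. Of 40 genes for the oligosaccharyltransferase and the N-glycan precursor, 26 were common lower, 15 of them in each experiment, and none common higher, or 1 with the replicate block. ALG2, a mannosyltransferase of the precursor, fell by 0.84 and 0.76 on the log2 scale, and OSTC, an oligosaccharyltransferase subunit, by 0.96 and 0.61. Supply of hexosamines and nucleotide sugars showed 16 of 32 members common lower and 1 common higher (GFUS, which makes GDP-fucose, at 0.44 and 0.03). GMPPA, which regulates GDP-mannose synthesis, stood at 67.5, 59.4, 61.5 and 53.3 CPM in siCtrl, 24.9, 25.9, 24.6 and 27.1 in siXBP1, 61.7, 57.8, 60.5 and 61.5 in Vehicle and 32.9, 30.9, 31.9 and 28.4 with MKC8866. GFPT1, which commits glucose carbon to hexosamines (-0.73 and -0.57), and PGM3 of the same route (-1.05 and -0.77) were lower as well. GPI anchor synthesis had 8 of 28 genes common lower and 1 of them in each experiment, or 2 with the replicate block. PIGT, a subunit of the transamidase that attaches the anchor, was common higher (0.33 and 0.08).

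ER-associated degradation had 19 of 39 members common lower (48.7%, against 9.22% of all genes), 14 of them in each experiment. Common higher were 4 (10.3%, near the 9.18% of all genes). The 4 became 2 with the replicate block and without siCtrl replicate 1, siCtrl replicate 3, siXBP1 replicate 1 or siXBP1 replicate 4. SYVN1 (chr11:65121780-65134533), the ubiquitin ligase HRD1 at the centre of this system, fell from 323, 324, 337 and 296 CPM to 118, 122, 105 and 125 in siXBP1, and from 309, 274, 301 and 294 CPM to 138, 123, 142 and 130 with MKC8866. The treated and control values were separate in both experiments, a condition for the genes with the largest shared changes. The log2 fold changes of SYVN1 were -1.45 ± 0.05 and -1.14 ± 0.05. EDEM1, a lectin that selects misfolded glycoproteins, fell by 0.70 and 0.65 on the log2 scale. Some members fell further with the inhibitor. HERPUD1 was at -0.25 and -0.61 and the ATPase VCP at -0.12 and -0.28, each with a called interaction. DERL3 stood at -0.45 and -0.70, where the interaction did not pass (adjusted p = 0.118). UFMylation, the attachment of the ubiquitin-like UFM1 at the ER surface, had 6 of 7 members common lower, and its ligase UFL1 fell from 97.7 to 110 CPM in siCtrl to 74.3 to 84.0 CPM in siXBP1 and from 100 to 110 CPM in Vehicle to 66.2 to 76.1 CPM with MKC8866.

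Genes for transport between the ER and the Golgi were described in 4 lists. For COPII and the ER exit sites, 18 of 24 genes were common lower, 14 in each experiment, and none common higher. SEC24D (chr4:118722823-118838683), a cargo-selecting subunit of the coat, fell from 192, 186, 193 and 192 CPM to 54.2, 49.2, 53.3 and 49.2 in siXBP1 and from 189, 188, 180 and 183 CPM to 91.6, 89.3, 88.3 and 88.3 with MKC8866. The fall was larger with siXBP1 (-1.89 ± 0.04 against -1.05 ± 0.04, interaction adjusted p = 7.18e-13). Of 26 cargo and retrieval receptors, 14 were common lower and 1 higher, with medians of -0.19 and -0.13. LMAN1, the lectin that carries glycoproteins to the Golgi, fell from 330, 334, 329 and 343 CPM to 166, 171, 167 and 172 in siXBP1 and from 308, 337, 326 and 333 CPM to 220, 232, 229 and 243 with MKC8866. COPI, which returns proteins to the ER, had 10 of 13 members common lower, with COPA at -1.16 and -0.28. Common higher was 1 (7.69%, near the 9.18% of all genes), or none with the block. Golgi structure genes were common lower in 13 of 24 cases, for example GOLPH3L (-1.20 and -0.81).

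Of 17 calcium pumps, channels and sensors, 4 were common lower and 1 higher, and the largest shared fall among them was that of WFS1, the gene of Wolfram syndrome, from 101 to 111 CPM in siCtrl to 44 to 51.8 in siXBP1 and from 93.3 to 101 CPM in Vehicle to 48.5 to 53.7 with MKC8866. Genes of ER shaping and ER-phagy were common lower in 7 of 24 and common higher in 3 cases, with medians of -0.01 and 0.00066. The 3 became 1 without any 1 of the siCtrl or siXBP1 libraries and 5 without Vehicle replicate 3. Among lipid genes, 6 of 24 for cholesterol synthesis and uptake were common lower and 2 higher, but none in each experiment. With the replicate block, 4 were common higher, and 3 were lower and 3 higher in each experiment. The 6 fell to 3 without siCtrl replicate 1, siCtrl replicate 4, siXBP1 replicate 1 or siXBP1 replicate 4. The 2 rose to 4 without Vehicle replicate 3 or MKC8866 replicate 2 and fell to 1 without siCtrl replicate 1. For fatty acid and triglyceride synthesis, 2 of 25 were common lower, or 1 with the block, and for phospholipid synthesis 2 of 17 in each direction, or 2 lower and 1 higher with the block. The fatty acid list (8% lower), the phospholipid list (11.8% in each direction) and the higher cholesterol genes (8.33%) were thus near the shares of all genes, 9.22% lower and 9.18% higher. PCYT1A, the regulated enzyme of phosphatidylcholine synthesis, was lower in each experiment (-0.64 and -0.18).

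**Figure D4:**
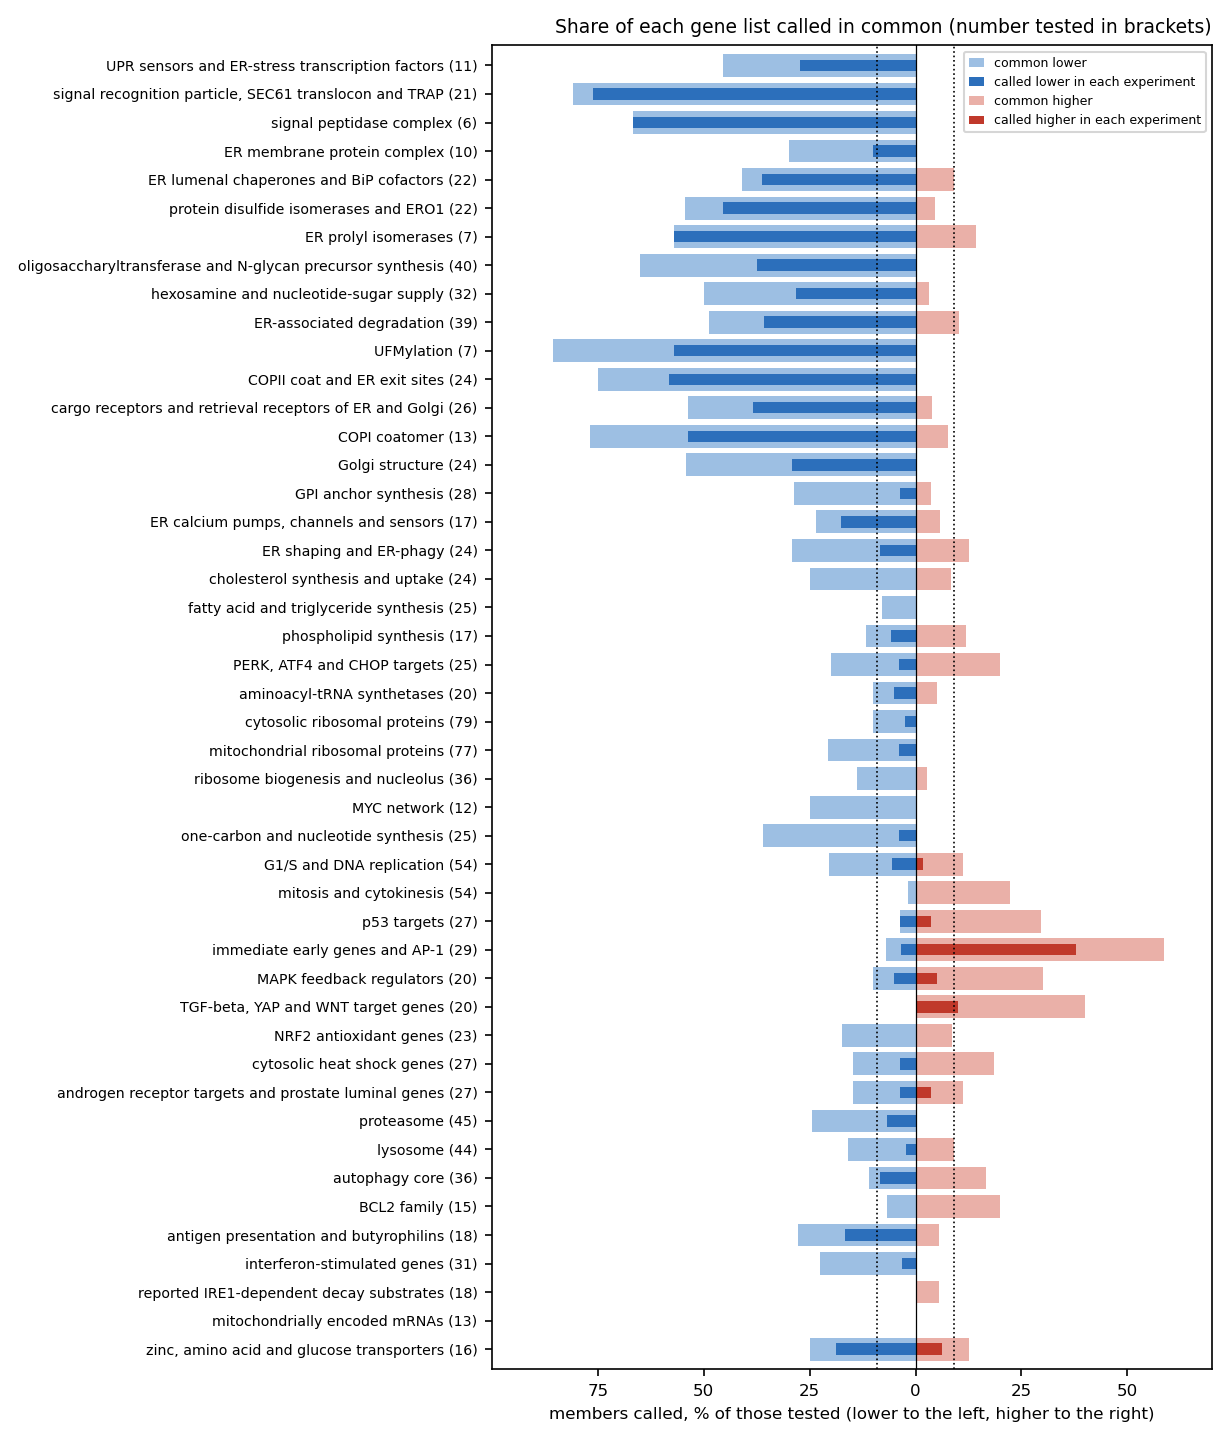
Percentage of the tested members of each gene list called common lower (to the left) and common higher (to the right), the darker part being called in each experiment on its own and the dotted lines marking 9.22% and 9.18% of all genes. The lists of ER import, glycosylation, degradation and transport extend to the left, up to 85.7% for UFMylation, and the list of immediate early genes extends furthest to the right, at 58.6%.

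Outside the secretory pathway, the share of common lower members reached at most 36% in any list, that of one-carbon and nucleotide synthesis. Targets of PERK, ATF4 and CHOP, another arm of the UPR, were common lower in 5 and common higher in 5 of 25 cases. Lower in each experiment was HERPUD1, which is also in the degradation list, or 2 members with the block. tRNA synthetases were lower in 2 and higher in 1 of 20 cases (1 and none with the block), the lower share of 10% being near that of all genes, with WARS1 at -0.18 and -0.23. Cytosolic ribosomal proteins were common lower in 8 of 79 cases (10.1%, near the 9.22% of all genes), 2 of them in each experiment, or 5 with the replicate block. Their medians had opposite signs, 0.02 with siXBP1 and -0.09 with MKC8866. Mitochondrial ribosomal proteins were common lower in 16 of 77 cases, of which 3 in each experiment (5 with the replicate block), in 9 with the block, in 10 without siCtrl replicate 4 and in 9 without siXBP1 replicate 1 or siXBP1 replicate 4. Ribosome biogenesis genes were higher in 1 and lower in 5 of 36 cases, the latter in 3 with the block or without any 1 of the siCtrl or siXBP1 libraries, and in 8 without MKC8866 replicate 4. Genes of the MYC network were common lower in 3 of 12 cases, none in each experiment (1 with the block), and MYC itself, singled out after its values were seen, stood at -0.50 with siXBP1 (adjusted p = 3.24e-08) and at 0.16 with MKC8866 (adjusted p = 0.0964). One-carbon and nucleotide synthesis had 9 of 25 members common lower, 1 of them (IMPDH1, -0.26 and -0.21) in each experiment, or 3 with the block. Proteasome subunits were lower in 11 of 45 cases, 3 of them in each experiment, or 6 with the block, and none was common higher.

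Cell cycle genes were described in 2 lists, to be read against 9.22% common lower and 9.18% common higher over all genes. Of 54 genes for G1/S and DNA replication, 11 were common lower (20.4%) and 6 higher (11.1%, near the share of all genes). Of 54 for mitosis and cytokinesis, 1 was lower (1.85%) and 12 higher (22.2%), though none of those 12 in each experiment (1 with the replicate block). The 12 became 8 with the replicate block and 7 without siXBP1 replicate 4. CDC6, which loads the replicative helicase, was among the 3 replication genes lower in each experiment, at 231, 231, 240 and 235 CPM in siCtrl, 85.6, 82.1, 83.9 and 86.8 in siXBP1, 225, 232, 217 and 224 in Vehicle and 138, 150, 142 and 145 with MKC8866. Treated and control libraries did not overlap within an experiment, and the fall with siXBP1 was larger (interaction adjusted p = 3.85e-13). FEN1, the flap endonuclease (-1.27 and -0.27), and CCND1, cyclin D1 (-0.56 and -0.13), were the others, and UHRF1 was higher in each (0.15 and 0.21). Targets of p53 were common higher in 8 of 27 cases (29.6%, 5 cases with the block) and lower in 1 (3.7%), with BTG2, an antiproliferative gene, higher in each (0.61 and 0.21; 2 such genes with the block) and the nuclease gene AEN lower in each (-0.64 and -0.18).

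The remaining lists are to be read against 9.22% of all genes common lower and 9.18% common higher. Over protein-coding genes alone these shares are somewhat higher (1579 lower and 1652 higher of 13877). The shares of higher lysosomal (9.09%), NRF2 (8.7%) and androgen receptor (11.1%) genes and of lower autophagy genes (11.1%) were near those of all genes. Of 18 antigen presentation and butyrophilin genes, 5 were common lower and 1 higher (none higher with the block). BTN3A1 fell from 19, 16.8, 17.9 and 13.4 CPM to 4.42, 4.33, 4.37 and 5.42 in siXBP1 and from 13.2, 12.1, 12.4 and 12.8 CPM to 5.22, 4.56, 5.79 and 5.76 with MKC8866, and its relatives BTN3A2 (-1.03 and -0.61) and BTN3A3 (-1.17 and -0.91) fell with it. These 3 genes are close relatives, and fragments that map to several genes were not counted. Interferon-stimulated genes were common lower in 7 of 31 cases, 1 of them (ISG20) in each experiment. Autophagy genes were lower in 4 and higher in 6 of 36 cases, with WIPI1, which binds the early autophagosome membrane, at -0.70 and -0.65. Lysosomal genes were lower in 7 and higher in 4 of 44, and the 4 became 7 without Vehicle replicate 3. NRF2 genes were lower in 4 and higher in 2 of 23 (1 higher with the block, 4 without Vehicle replicate 1 or Vehicle replicate 4). Cytosolic heat shock genes were lower in 4 and higher in 5 of 27, and the 5 became 3 with the replicate block and without siCtrl replicate 3. BCL2 family genes were lower in 1 and higher in 3 of 15, and the 3 became 5 without Vehicle replicate 3 or MKC8866 replicate 1. Androgen receptor and luminal genes were lower in 4 and higher in 3 of 27, and the 4 became 2 without Vehicle replicate 1 or MKC8866 replicate 2. Transporters for zinc, amino acids and glucose were lower in 4 and higher in 2 of 16, and the 2 became 4 without Vehicle replicate 3. SLC39A7, which releases zinc from the ER, was lower in each experiment (-0.74 and -0.43), and SLC30A1, which exports zinc from the cell, was higher in each (0.46 and 0.27). Of 18 listed substrates of IRE1-dependent decay, mRNAs that the RNase can cut, none was common lower and 1 was common higher, or 3 without Vehicle replicate 3, MKC8866 replicate 1 or MKC8866 replicate 2. None of the 13 mitochondrially encoded mRNAs was common, their medians being 0.13 with siXBP1 and -0.12 with MKC8866. Over all lists, a count of 3 or fewer members moved by at most 2 genes when 1 library was left out, which can be as large as the count itself.

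Signalling genes were described in 3 lists. Of their 69 members tested, 31 (44.9%) were common higher and 4 common lower, against 9.18% and 9.22% of all genes. Higher in each experiment were 14 members, or 21 with the replicate block, and the 14 are 10.6% of the 132 genes so called. Over genes with no overlapping exons, 19 of 46 members were common higher (41.3%, against 8.8% of all). Immediate early genes, transcribed within minutes of a growth signal, led with 17 of 29 common higher, 11 of them in each experiment, and 2 common lower. Their medians were 0.20 and 0.18.

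FOS (chr14:75278774-75282230), a component of the AP-1 transcription factor, stood at 12.1, 11.7, 10.9 and 12 CPM in siCtrl and 15.6, 13.7, 14.7 and 14.6 in siXBP1, and at 12.7, 11.2, 10.7 and 11.8 CPM in Vehicle and 16.6, 15.1, 15 and 14.9 with MKC8866. Every treated library was above every control of its experiment, by a narrow margin, which the choice of the largest shared changes required. Its partner JUN was at 0.17 and 0.27 on the log2 scale. KLF6, a zinc finger factor, rose from 102, 101, 93.4 and 104 CPM to 136, 129, 127 and 138 in siXBP1 and from 101, 102, 105 and 102 CPM to 128, 121, 120 and 127 with MKC8866. Treated and control libraries of KLF6 were also separate within each experiment, at log2 fold changes of 0.41 ± 0.05 and 0.27 ± 0.04. IER2 (0.22 and 0.32), IER5L (0.75 and 0.28), FOSL2 (0.22 and 0.18), KLF10 (0.36 and 0.19), SRF, the factor that drives many of these genes (0.16 and 0.25), EGR3 (0.91 and 0.46) and ZFP36L1, which binds AU-rich mRNAs for decay (0.28 and 0.32), were higher in each. NR4A2, an orphan nuclear receptor, went the other way and was lower in each (-0.85 and -0.55).

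**Figure D5:**
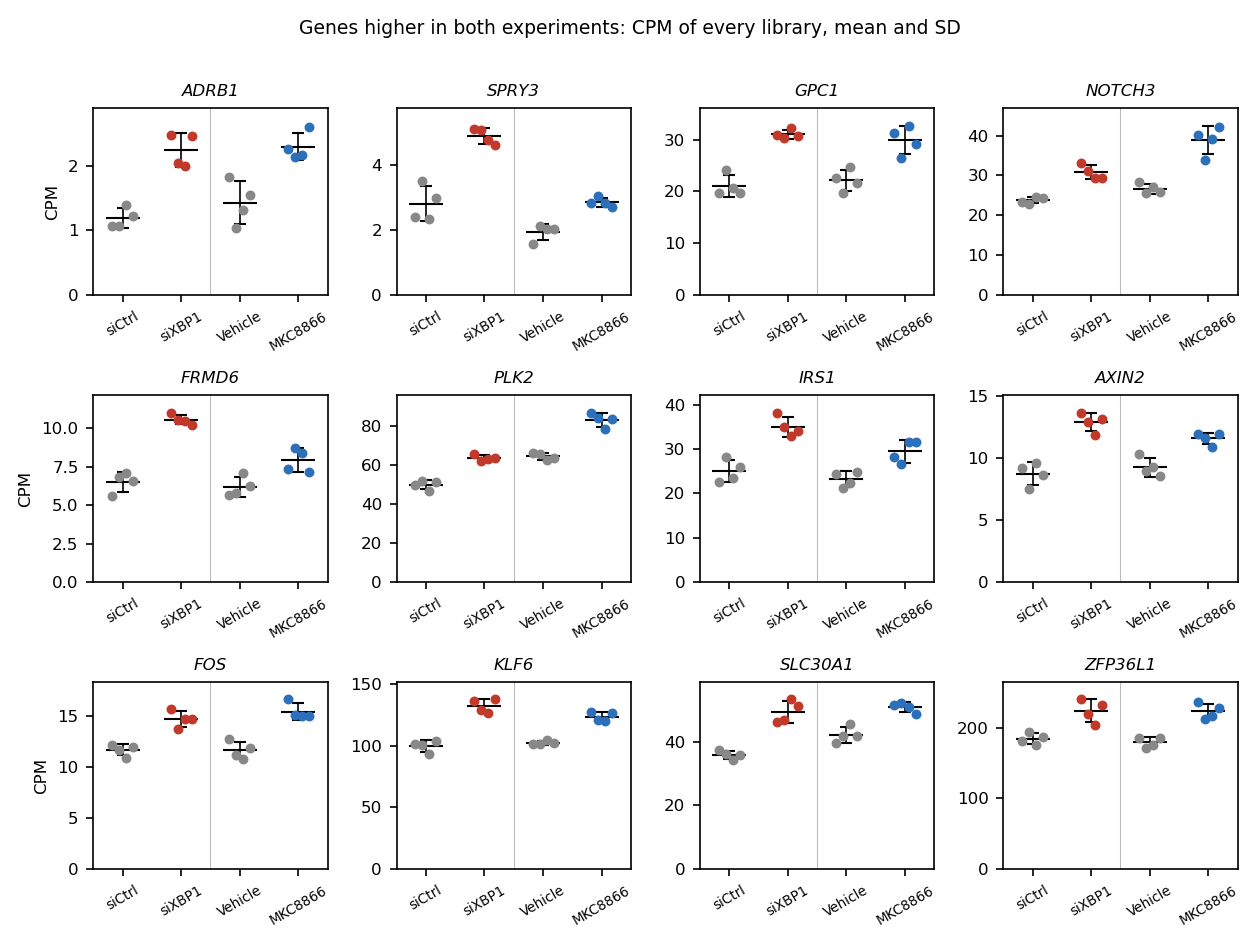
CPM of every library (points) for 12 common higher genes, with the mean and SD (n = 4) of each group, siCtrl and siXBP1 to the left and Vehicle and MKC8866 to the right of the grey line. The treated libraries lie above the controls of their own experiment in each panel, by less than the margins of the common lower genes, and the Vehicle level differs from siCtrl for genes such as PLK2.

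Feedback regulators of MAPK signalling were common higher in 6 of 20 cases (30%, against 9.18% of all genes). Common lower were 2 (10%, near the 9.22% of all genes). Higher in each experiment was PHLDA1 (0.94 and 0.37), or 4 members with the replicate block. Targets of TGF-beta, YAP and WNT were common higher in 8 of 20 cases and lower in none, and the 8 became 5 with the block and without siXBP1 replicate 1. AXIN2, a feedback inhibitor and target of WNT signalling, rose from 9.16, 7.45, 9.6 and 8.59 CPM to 13.6, 12.9, 11.8 and 13.1 in siXBP1 and from 10.3, 8.91, 9.24 and 8.49 CPM to 11.9, 11.6, 10.9 and 11.9 with MKC8866. The AXIN2 values did not overlap within an experiment, which the choice of the largest shared changes required. The other target higher in each was CCN1 (0.15 and 0.26).

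Among genes that averaged 1 CPM or more and whose treated and control libraries were separate, the 20 with the largest common fall had shared log2 changes (the smaller of the experiments) between 1.07 and 2.33. All 20 were lower in each experiment. Besides BHLHA15, FICD, DNAJB9, FKBP11, BTN3A1 and SYVN1, they include TMEM39A, an ER membrane protein, at 93.5, 90.1, 96.6 and 92.5 CPM in siCtrl, 26.9, 28.1, 27.4 and 28.0 in siXBP1, 83.3, 88.0, 84.4 and 84.7 in Vehicle and 38.4, 37.0, 40.4 and 37.9 with MKC8866. TSPYL2, a nucleosome assembly protein, fell from 218, 198, 215 and 173 CPM to 82.2, 92.9, 81.8 and 95.2 in siXBP1 and from 233, 231, 238 and 241 CPM to 108, 109, 104 and 112 with MKC8866. With siXBP1 the log2 fold change was -1.19 ± 0.06 and with MKC8866 -1.12 ± 0.04, a difference that missed the interaction threshold (adjusted p = 0.613). CCDC163, ANG, ZNF648 and MTUS2 complete the 12 protein-coding genes, and of these ANG, ZNF648 and MTUS2 had means of a few CPM.

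The other 8 of the 20 are not protein-coding. MIR22HG, the host gene of microRNA 22, fell from 46.4, 34.2, 43.4 and 29.0 CPM to 12.8, 15.4, 13.3 and 14.1 in siXBP1 and from 42.0, 40.4, 40.7 and 41.1 CPM to 10.4, 12.2, 12 and 10.6 with MKC8866. It was the only 1 of the 20 with a called interaction in which the inhibitor gave the larger fall (-1.46 against -1.86, adjusted p = 0.0352). HM13-IT1 lies in an intron of the signal peptide peptidase gene HM13 on the same strand. It fell by 2.20 and 2.27 on the log2 scale from 1.26 to 2.20 CPM in the controls, whereas HM13 fell by 0.44 and 0.35. EMC1-AS1 lies across EMC1 on the opposite strand and fell by 1.66 and 1.48, while EMC1 stood at -0.24 and 0.08 and was not common. The counts carry no strand, so reads of EMC1-AS1 and of EMC1 cannot be told apart where both lie. Fragments that touch exons of both genes were not counted. MSTO2P, a transcribed pseudogene, fell by 1.37 and 1.16. Its expressed relatives could share reads with it, though fragments that map to several genes were not counted. The relative MSTO1, named after its values were seen, was also lower in each experiment (-1.22 and -1.06).

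The 20 common higher genes chosen by the same rule had smaller shared changes, from 0.33 to 0.68, and 12 of them were higher in each experiment, or 15 with the replicate block. ADRB1, the β1-adrenergic receptor, led them at low levels, with 1.07, 1.06, 1.40 and 1.23 CPM in siCtrl, 2.49, 2.05, 2 and 2.46 in siXBP1, 1.83, 1.04, 1.31 and 1.56 in Vehicle and 2.26, 2.15, 2.18 and 2.6 with MKC8866. SPRY3, a Sprouty inhibitor of receptor tyrosine kinase signalling, followed at log2 fold changes of 0.79 ± 0.13 and 0.56 ± 0.14. GPC1, a cell surface proteoglycan, rose from 19.7, 24.2, 20.7 and 19.7 CPM to 30.8, 30.3, 32.3 and 30.6 in siXBP1 and from 22.5, 19.8, 24.6 and 21.6 CPM to 31.2, 26.5, 32.7 and 29.2 with MKC8866.

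Other genes of the 20 were as follows. NOTCH3, a Notch receptor, rose from 23.2, 22.9, 24.6 and 24.4 CPM to 33.0, 31.2, 29.4 and 29.3 in siXBP1 and from 28.2, 25.6, 27.0 and 25.7 CPM to 40.2, 33.9, 39.2 and 42.1 with MKC8866. IRS1, the adaptor of the insulin and IGF1 receptors, rose from 22.5, 28.1, 23.5 and 26.0 CPM to 38.2, 35.0, 33.0 and 34.2 in siXBP1 and from 24.5, 21.2, 22.5 and 24.9 CPM to 28.1, 26.6, 31.6 and 31.7 with MKC8866. The differences between the experiments did not pass the interaction test for NOTCH3 (adjusted p = 0.149) or IRS1 (adjusted p = 0.353). PLK2, a serum-inducible kinase, rose from 50.1, 51.7, 46.6 and 51.5 CPM to 65.6, 62.0, 63.2 and 64.0 in siXBP1 and from 66.1, 65.9, 62.5 and 63.8 CPM to 86.8, 84.2, 78.4 and 83.9 with MKC8866. Its siXBP1 libraries were thus at the level of Vehicle, and the comparison holds only within an experiment. FRMD6, a FERM-domain protein of the Hippo pathway, was higher at 0.69 ± 0.09 and 0.35 ± 0.09. WNT5A, a WNT ligand, and DACT1, an inhibitor of WNT signalling, were called in the joint test but not with MKC8866 fitted apart (adjusted p = 0.0529 and 0.177). With the replicate block, WNT5A passed there (adjusted p = 0.00988) and DACT1 did not (adjusted p = 0.0901), and for DACT1 the sizes differed by the interaction test (log2 fold changes of 1.09 and 0.42).

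The joint test alone, without the rule on direction, called 11.1% of genes lower and 10.2% higher. Of these, 593 had opposite directions in the separate comparisons and were left out. Lower after knockdown and higher with MKC8866, each called, were 65 genes, and 17 were called in the reverse way.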

How the data were processed

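The deposited table holds raw counts of fragments per Ensembl gene. Per its header and the study's methods, the authors aligned stranded paired-end reads to hg38 with STAR 2.5.2a and counted them with featureCounts 1.5.0 without a strand option, so that antisense and overlapping genes can share or lose fragments, and multimapping fragments were not counted. Of 58051 genes, 56948 were matched to a symbol, and the table's exon lengths were not used.

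Counts were analysed in R 4.3.3 with edgeR 4.0.16 (TMM, quasi-likelihood F test, two-sided, Benjamini-Hochberg adjusted p under 0.05). The common fit tested the 20357 genes for which every group had a library above 5 counts, the filter of the study's methods applied to all 4 groups. The separate fits tested 21021 (knockdown) and 21045 (inhibitor) genes, so their adjusted p-values rest on other gene sets. The common fit held all 16 libraries with the experiment as covariate, the separate fits 8 libraries each, and the interaction was fitted over the 4 groups. At this depth the spread between libraries (biological coefficient of variation 7.95% in the common fit, 5.40% in the knockdown and 4.97% in the inhibitor experiment) limits precision for abundant genes, and counting error for rare ones.

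The members of the 46 gene lists (1238 symbols) and the comparison were chosen with earlier results of these data known, and 1 further list is not reported here. Genes named are XBP1, the 20 largest shared changes per direction (at least 1 CPM, no overlap of libraries), up to 5 common genes per list and direction, and markers. Other list members that are named, such as HYOU1, COPA, JUN, IER2, SRP19 and CRELD2, were chosen after their values were seen.

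Replicate numbers were checked as pairs over 15041 genes. Same-numbered libraries of the inhibitor experiment deviated together (correlations 0.102 to 0.379, mean 0.23), so their numbers may mark pairs. Differently numbered ones gave -0.253 to 0.159 (mean -0.0764), so the ranges overlap in part. Deviations were taken from the mean of each group, which by itself lowers differently numbered correlations where same-numbered ones are positive. The differently numbered ones are thus no independent reference. Same-numbered libraries of the knockdown did not deviate together (0.00104 to 0.0685, against -0.152 to 0.148 for differently numbered ones). The replicate block pairs them all the same. The block is given beside a count that it moves by over 1.5 times. The scripts were tested on simulated data with the same spread for all genes and equal changes in both experiments. There the common test recovered 60.3% of 68 genes changed by 0.3 on the log2 scale. It recovered 69.7% of 66 changed by 0.6 and 90.9% of 66 changed by 1. False calls were 5 among 20157 unchanged genes. No gene was simulated to change in 1 experiment only, so false common calls of that kind were not tested. Alternatives were DESeq2 1.42.0, its size factors in edgeR, other count filters, the replicate block, a fit of 4 groups, stricter thresholds, removal of genes with overlapping exons and of each library in turn. Promoters came from a RefSeq table (GRCh38.p14), with over 80% of the protein-coding genes of each set matched. Protein features were not analysed here. Scripts outside R used python 3.11.15, pandas 2.3.3 and matplotlib 3.10.9.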

Additional observations from a re-analysis of the deposited data

Results flagged for a closer look

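For the 41 genes of XBP1 and the largest shared changes, 164 groups of 4 libraries were examined for a library far from the other 3, and 8 were marked by Dixon's critical value, which is set so that chance marks about 1 group in 20. BTN3A1 in siXBP1 replicate 4 stood at 5.42 CPM with the other libraries at 4.33 to 4.42. SPRY3 in Vehicle replicate 1 was at 1.56 CPM, below 2.03 to 2.11 in the others. MKC8866 replicate 4 was high for ENSG00000268262 (2.05 CPM, others 1.77 to 1.82) and for ENSG00000223930 (3.24 CPM, others 2.71 to 2.79). ENSG00000259094 was low in siCtrl replicate 2, at 0.591 CPM against 1.02 to 1.06. KCNJ2 was high in siXBP1 replicate 1 (2.9 CPM, others 2.34 to 2.41) and low in Vehicle replicate 3 (1.28 CPM, others 1.79 to 1.83). FOS in MKC8866 replicate 1 was at 16.6 CPM, above 14.9 to 15.1.

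The size of the response differed between the experiments for 12 of the 41 genes by the interaction test of edgeR. As the log2 fold change after knockdown minus that with MKC8866, the difference was -3.05 for XBP1, which fell with siXBP1 (-2.85) and stood at 0.203 with MKC8866. It was -1.25 for BHLHA15, -1.15 for ZNF648, -0.608 for BTN3A1, -0.607 for TMEM39A, -0.602 for FKBP11, -0.461 for FICD, -0.443 for DNAJB9 and -0.3 for SYVN1, each of which fell further with siXBP1. It was 0.405 for MIR22HG, whose fall was deeper with MKC8866. For the common higher genes DACT1 and ATP2B1-AS1 it was 0.673 and 0.41, a larger rise with siXBP1. ATP2B1-AS1 overlaps ATP2B1, which stood at 0.61 with siXBP1 and 0.05 with MKC8866, and the counts do not separate their strands.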

How the results depend on the processing

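All 41 genes of XBP1 and the largest shared changes kept their direction and their side of the joint-test threshold in every alternative testing them. Those tested were 39 with at least 10 counts in every library and 25 without overlapping exons. Apart from XBP1, these genes were picked for large, separate changes in these same data. That they kept their call is therefore no independent support. Under DESeq2 the counts were 1915 common lower and 2112 common higher, with 541 and 162 in each experiment. With the stricter threshold (adjusted p under 0.01 and over 1.2-fold) they were 759 and 501, with 296 and 21 in each. Over the 11748 genes with no overlapping exons they were 1031 and 1034, with 264 and 64 in each, since fewer genes were tested. With the replicate block in every fit, 786 genes were lower and 427 higher in each experiment, and the call of none of the 41 genes changed in the joint test. Leaving out 1 library gave 1573 to 1956 common lower and 1467 to 2059 common higher genes, and 437 to 537 lower and 85 to 177 higher in each experiment, with the 85 without MKC8866 replicate 1. The causes were not tested. Genes of about 1 CPM rest on counts as low as 5 in a library, and their fold changes are the least precise.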
